A study of Mus musculus with 24 samples.

Results

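The miRNAs of the mammary gland on day 3 of involution (Inv3), the regression that follows the end of milk removal, were compared with those of adult females of 10 weeks of age (W10), to find which had and which had not returned to the W10 level. Of the 1009 miRNAs listed in the series, the 519 with a mean of at least 1 RPM (reads per 1000000 miRNA reads) at W10 or at Inv3 were taken. Of these, 444 reached 1 RPM at both stages, 59 at W10 only and 16 at Inv3 only, and a miRNA of the last 2 kinds had to be higher at the stage that brought it in. Small RNA had been sequenced from whole frozen glands (pairs 4 and 5, abdominal and inguinal) of female C57BL/6 mice, with 1 library for every mouse and 6 mice a stage, 4 stages in all, of which W10 and Inv3 are used here and day 18 of gestation (P18) and day 7 of lactation (Lac7) only for reference. No mouse carried a transgene or received a treatment. The sources call the W10 mice adult and give no age for the Inv3 mice and no parity for either. The series' design text speaks of day 3 of lactation, day 7 of involution and inguinal glands alone. The methods give day 7 of lactation, as the sample titles do, and day 3 of involution, for which the titles name no day. The days of the methods are used here. A library is 1 homogenate of epithelium, fat, vessels, immune cells and any muscle taken with the gland, so fewer cells of a type and less of a miRNA per cell cannot be told apart in any result below.

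A miRNA is a short RNA that pairs with messenger RNAs, mainly through its seed (bases 2 to 8), and lowers their translation or stability. It is cut from a hairpin whose arms give the -5p and -3p forms, and miRNAs with the same seed can share targets. In the mammary gland, milk-secreting epithelium fills the fat pad by the end of pregnancy. After milk removal stops, the secretory cells die and are cleared, and fat and stroma refill the pad.

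The mature sequences below, from the RefSeq table of GRCm38.p6, belong to miRNAs on which the comparison turned and to the members of their families that moved less. Each is written 5′ to 3′ with the seed in capitals. The first 5 listed are the miR-200 family of epithelial cells, with 2 seeds. The next are the pair of miR-146, the miR-148 family, miR-182 and miR-96 of the miR-183 cluster, miR-204 with miR-211, the miR-196 pair of the Hox clusters, miR-184, miR-338 with the complementary miR-3065, miR-142a with the complementary miR-142b, and miR-126a of endothelium. A sequence was matched to 438 of the 519 names.
miR-200a-3p: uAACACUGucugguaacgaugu
miR-141-3p: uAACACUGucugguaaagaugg
miR-200b-3p: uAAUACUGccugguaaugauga
miR-200c-3p: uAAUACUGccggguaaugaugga
miR-429-3p: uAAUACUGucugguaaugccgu
miR-146a-5p: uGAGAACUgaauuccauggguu
miR-146b-5p: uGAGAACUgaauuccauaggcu
miR-148a-3p: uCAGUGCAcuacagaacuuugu
miR-148b-3p: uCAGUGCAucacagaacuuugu
miR-152-3p: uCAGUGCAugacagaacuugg
miR-182-5p: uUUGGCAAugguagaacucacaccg
miR-96-5p: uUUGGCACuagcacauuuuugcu
miR-204-5p: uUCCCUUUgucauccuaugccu
miR-211-5p: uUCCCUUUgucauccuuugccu
miR-196a-5p: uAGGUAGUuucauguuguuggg
miR-196b-5p: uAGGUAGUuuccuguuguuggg
miR-184-3p: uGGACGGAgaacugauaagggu
miR-338-3p: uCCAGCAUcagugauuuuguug
miR-3065-5p: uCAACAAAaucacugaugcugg
miR-142a-3p: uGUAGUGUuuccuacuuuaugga
miR-142b: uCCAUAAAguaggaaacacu
miR-126a-3p: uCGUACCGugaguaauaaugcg

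At Inv3, 31 of the 519 miRNAs were higher than at W10 and 108 lower, where a call needed a two-sided adjusted p under 0.05 (limma on log2(RPM + 1), Benjamini-Hochberg) and a difference of at least 2-fold. The background shares of called miRNAs were therefore 5.97% higher and 20.8% lower, and the counts of members of any list below are read against them. All lists were chosen with earlier results of these data known, so those counts are a description only. The other side of the question was tested separately. Of the 290 miRNAs that averaged 10 RPM or more across the 12 libraries, 119 (41.0%) lay within 2-fold of their W10 level (equivalence test with limma's moderated statistic, adjusted p under 0.05), 89 were called changed and 82 were neither. Over all 519, the mice of the 2 stages did not overlap for 82 miRNAs (15.8%), 16 (3.08%) higher and 66 (12.7%) lower at Inv3, and 62 of the 82 were among the calls.

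RPM divide a fixed total, so a rise of 1 abundant miRNA lowers the values of all others. The median log2 difference of the 519 miRNAs was -0.45 in RPM and -0.10 with size factors (DESeq2), which scale each library by its typical miRNA. With size factors 40 miRNAs (7.71%) were called higher and 57 (11.0%) lower, so 41.2% of the calls were increases, against 22.3% in RPM. All 31 RPM increases and 57 of the 108 decreases kept their call, and 96 of the 119 miRNAs near W10 stayed near it, with 149 of 292 (51.0%) near in all. Where a call named below was lost or gained with size factors, that is said beside it. The 12 libraries held 722068 to 1165321 reads on miRNAs, which the RPM values gave back as whole reads, so that a count of 0 allows up to 2.57 to 4.15 RPM (3 reads), counting error only. A difference at a level near 1 RPM is understated on the scale of log2(RPM + 1). Mice of a stage are taken as separate animals, and the p-values measure the spread between them.

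**Figure D1:**
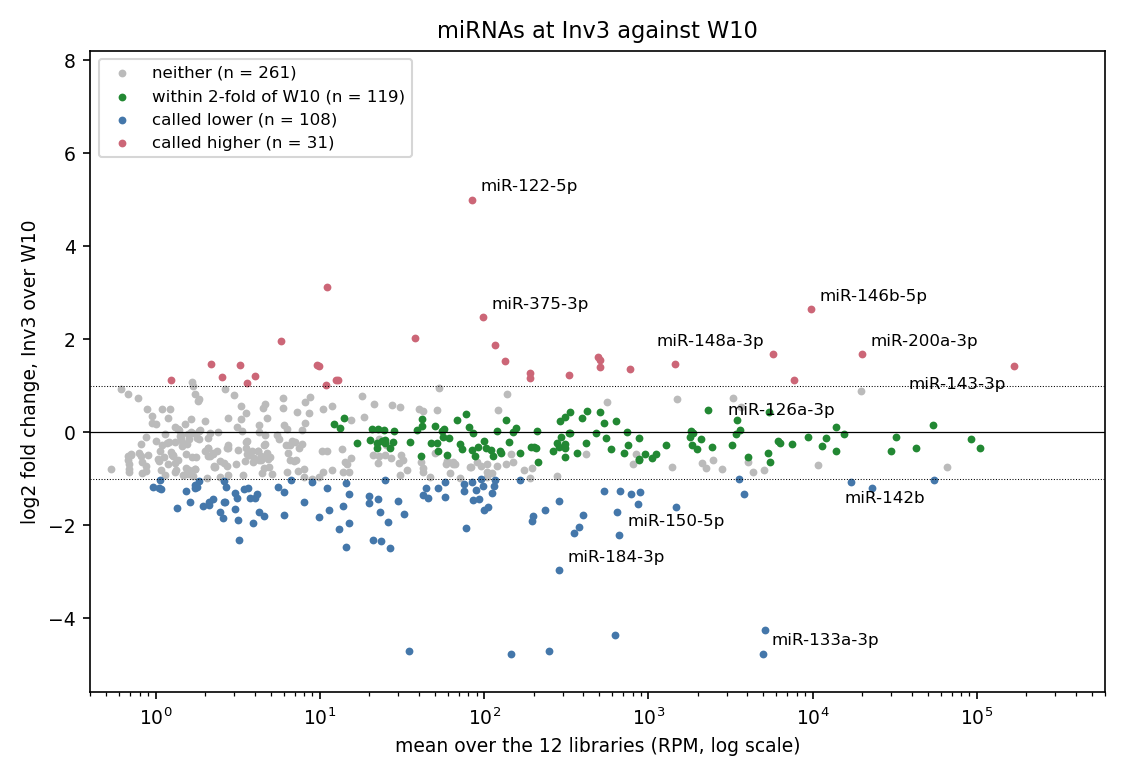
Log2 fold change of the 519 miRNAs at Inv3 over W10 (vertical axis, on log2(RPM + 1)) against the mean over the 12 libraries in RPM (horizontal axis, log scale), with dotted lines at 2-fold. Called increases (31) reach the most abundant miRNA, miR-143-3p, called decreases (108) are led by miRNAs of skeletal muscle near -4 to -5, and the 119 miRNAs within 2-fold of W10 lie around 0 over the whole range above 10 RPM.

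The most abundant miRNA of the comparison, miR-143-3p, a miRNA of smooth muscle and other mesenchymal cells, took far more of the reads at Inv3. It had 84721 to 103515 RPM in the W10 mice (median 91456) and 212944 to 295263 in the Inv3 mice (median 235976). Every Inv3 mouse was above 2 times the highest W10 mouse. The log2 difference was 1.41 (95% interval 1.18 to 1.65, adjusted p = 1.2e-07), or 1.83 with size factors. As a share, miR-143-3p rose from 9.24 ± 0.687% of the reads to 24.6 ± 2.93% (SD, n = 6), a gain of 15.4 percentage points, and the P18 and Lac7 mice lay between, at 13.8 to 15.5% and 12.9 to 14.8%. The other arm, miR-143-5p, rose from 119.8 ± 31.0 to 262 ± 37.1 RPM, also without overlap (log2 difference 1.16, adjusted p = 0.00038). Its call was lost without W10 mouse 1, the lowest at 59.3 RPM (log2 difference 0.98). miR-145a-5p, from the same cluster, had 1151 ± 290.4 and 1838 ± 181 RPM, a log2 difference of 0.71 that stayed under 2-fold in RPM and was called at 1.13 with size factors. miR-145a-3p was within 2-fold of W10 (log2 difference 0.32, and 0.74 with size factors). The miR-199 and miR-214 forms, which make up the rest of the fibroblast and smooth muscle list, had negative log2 differences in RPM and with size factors, from -0.65 (miR-199a-5p) to -1.34 (miR-214-3p) in RPM. Of these, miR-214-3p and miR-199b-5p were called lower in RPM (adjusted p = 0.0035 and 0.00027) and neither with size factors (-0.93 and -0.85).

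As shares of the library, the largest differences upward after miR-143-3p were miR-200a-3p (2.30 points), miR-146b-5p (1.48 points), miR-27b-3p (1.18 points) and miR-148a-3p (0.672 points). The largest differences downward were those of miR-142b (from 7.36% to 3.57%), miR-199a-3p (from 8.23% to 4.89%), miR-16-5p (from 11.6% to 9.15%) and miR-142a-5p (from 3.20% to 1.39%).

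Most epithelial miRNAs were above the W10 level. Of the 18 tested members of the epithelial list (the miR-200 family, the miR-183 cluster, miR-203 and miR-205), 14 were called higher at Inv3 and 1 lower, against 5.97% and 20.8% of all miRNAs, and the median log2 difference was 1.41, against -0.45 for all 519. miR-200a-3p, which with its family holds back the transcription factors of mesenchymal change, had 7072 to 11694 RPM at W10 (median 8089) and 12214 to 53996 RPM at Inv3 (median 29694). The groups did not overlap, but Inv3 mouse 2 was close to the highest W10 mouse while mice 3 and 6 were over 4 times higher (log2 difference 1.68, 95% interval 1.04 to 2.32, adjusted p = 0.00035). By the means the level at Inv3 was 3.69 times that of W10, and the Lac7 mean was 73975 RPM. Its cluster partners on chromosome 4, miR-200b-3p (4675 ± 875 to 10743 ± 4440.3 RPM, adjusted p = 0.001) and miR-429-3p (262 ± 19.8 to 749 ± 326 RPM, adjusted p = 0.00027), did not overlap either. The 3 genes lie in a row on the minus strand, Mir200b at chr4:156055681-156055750, Mir200a at chr4:156054896-156054985 and Mir429 at chr4:156053905-156053987, within an intron of Ttll10 (GENCODE annotation of GRCm38).

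In the second miR-200 cluster, 3 of the 4 forms were called higher and the main arm of miR-200c was not. miR-200c-3p had 2892 ± 812 RPM at W10 and 4402 ± 1786 RPM at Inv3, with overlap and no call (log2 difference 0.55, 95% interval 0.06 to 1.04). miR-141-3p, encoded beside it on chromosome 6 (Mir141 at chr6:124717914-124717985 and Mir200c at chr6:124718322-124718390, minus strand, in an intron of the antisense transcript Gm15884), was called at 393 ± 88.8 and 1158 ± 665 RPM (log2 difference 1.36), and its minor arm miR-141-5p rose from 210.5 ± 14.1 to 781 ± 476 RPM without overlap (log2 difference 1.61). miR-200c-5p was called at 1.44 (adjusted p = 0.043) at a level of at most 2 reads in a W10 library and 9 in an Inv3 library. The minor arms of the first cluster rose too, miR-200a-5p from 13.0 ± 3.04 to 62.5 ± 34.8 RPM (log2 difference 2.03) and miR-200b-5p from 61.9 ± 6.37 to 206 ± 109.8 RPM (log2 difference 1.53).

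The miR-183 cluster, shared by sensory and secretory epithelia, was also higher. miR-182-5p had 578 to 857 RPM at W10 (median 726) and 1122 to 3498 RPM at Inv3 (median 2073), and miR-96-5p had 28 to 63.0 RPM at W10 and 85.7 to 303 RPM at Inv3. Neither overlapped (log2 differences 1.47 and 1.87, adjusted p = 0.00032 and 0.00029). miR-183-5p was called at 1.54 (adjusted p = 0.0011) with 1 W10 mouse, at 411 RPM, inside the Inv3 range. The 3 genes lie between chr6:30165918-30165992 (Mir182) and chr6:30169668-30169737 (Mir183) on the minus strand, with no host gene in the annotation.

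The epithelial miRNAs best known from skin went separate ways. miR-203-5p was the 1 member called lower, from 124.9 ± 46.5 to 30.1 ± 14.2 RPM (log2 difference -2.06, adjusted p = 4.6e-05), and its main arm miR-203-3p did not overlap at 5653 ± 1584 and 3044 ± 525 RPM but fell short of 2-fold (log2 difference -0.87, adjusted p = 0.00089). miR-205-5p, a miRNA of basal and keratinocyte-like cells, was 259 to 691 RPM at W10 and 407 to 1074 RPM at Inv3. It was not called in RPM (log2 difference 0.64, adjusted p = 0.09) and called with size factors at 1.05. Among the Inv3 mice, miR-205-5p was highest in mice 1 and 2 (1074 and 1042 RPM) and lowest in mice 4 and 6 (407 and 443 RPM), while miR-200a-3p was lowest in mice 1 and 2 (16145 and 12214 RPM) and highest in mice 6 and 3 (53996 and 47570.2 RPM).

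Several miRNAs of the lactating gland were above W10 by amounts that differed between the Inv3 mice. miR-146b-5p had the largest non-overlapping increase, from 1879.7 to 2816 RPM at W10 (median 2369.9) to 5787 to 26279 RPM at Inv3 (median 19495). Every Inv3 mouse was well above every W10 mouse (log2 difference 2.65, 95% interval 1.97 to 3.33, adjusted p = 6.5e-06). Mir146b lies at chr19:46342762-46342870 on the plus strand, in an intron of Mfsd13a. miR-148a-3p, abundant in milk, was called at a log2 difference of 1.67 (adjusted p = 0.0018), with 3405, 2810.1, 13758, 13717, 5579.5 and 15195 RPM in Inv3 mice 1 to 6. W10 mouse 1, at 3632 RPM, was above Inv3 mice 1 and 2, and the other W10 mice lay between 1809 and 2339 RPM. miR-375-3p, a miRNA of secretory cells, showed the same split, with 39.5, 35.1, 392, 185, 61.0 and 306 RPM in Inv3 mice 1 to 6 and 8.95 to 76.6 RPM at W10 (log2 difference 2.47, adjusted p = 0.0037). miR-210-3p, induced by hypoxia, was 22.5 to 137 RPM at Inv3 and 12.9 to 44.6 RPM at W10. It was not called in RPM (log2 difference 0.96, adjusted p = 0.09) and called with size factors at 1.36. Over the lactating gland list of 9 tested miRNAs, 5 were called higher and 2 lower, both arms of miR-378a (log2 differences -1.28 and -1.21), which were not called with size factors (-0.87 and -0.80).

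A few other miRNAs were higher. miR-31-5p had 67.9 to 156 RPM at W10 and 163 to 412 RPM at Inv3 (log2 difference 1.28, adjusted p = 0.00072), and miR-34a-5p, a target of p53, had 111 to 255 RPM at W10 and 276 to 735 RPM at Inv3 (log2 difference 1.22, adjusted p = 0.0016). Neither overlapped between the stages. Both are in the list of inflammation and remodelling, of which 3 of 17 were called higher, none lower and 7 lay within 2-fold of W10, with a median log2 difference of 0.44. miR-27b-3p, an inhibitor of fat cell formation, rose from 13694 ± 990.2 to 25539 ± 5352 RPM without overlap. This was under 2-fold in RPM (log2 difference 0.87, adjusted p = 0.00017) and was called with size factors (1.29).

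Liver and low-level miRNAs need their single values. miR-122-5p, which defines hepatocytes, had 0, 626, 112, 35.8, 34.3 and 195 RPM in Inv3 mice 1 to 6, and at most 2 reads in any W10 library, so no fold is given. It was called higher (adjusted p = 0.001) although Inv3 mouse 1 had no read. Among the reference stages, 1 P18 mouse had 2062 RPM and 1 Lac7 mouse 54.8 RPM, while the other 10 had at most 2.66 RPM. The other liver miRNAs, miR-192-5p and miR-194-5p, were within 2-fold of W10 (log2 differences -0.28 and -0.44 in RPM, 0.14 and -0.03 with size factors), and miR-122-3p had a mean of 3.33 RPM at Inv3. The part of liver RNA in these values was not tested. miR-3105-5p had 4.29, 4.5, 34.6, 38.9, 15.2 and 27.7 RPM in Inv3 mice 1 to 6 and at most 4.30 RPM at W10. These 2 miRNAs, with miR-375-3p, had the widest spread between Inv3 mice, and were singled out after their values were seen. The fitted log2 difference of miR-122-5p in the plot of fold change by level depends on the pseudocount.

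**Figure D2:**
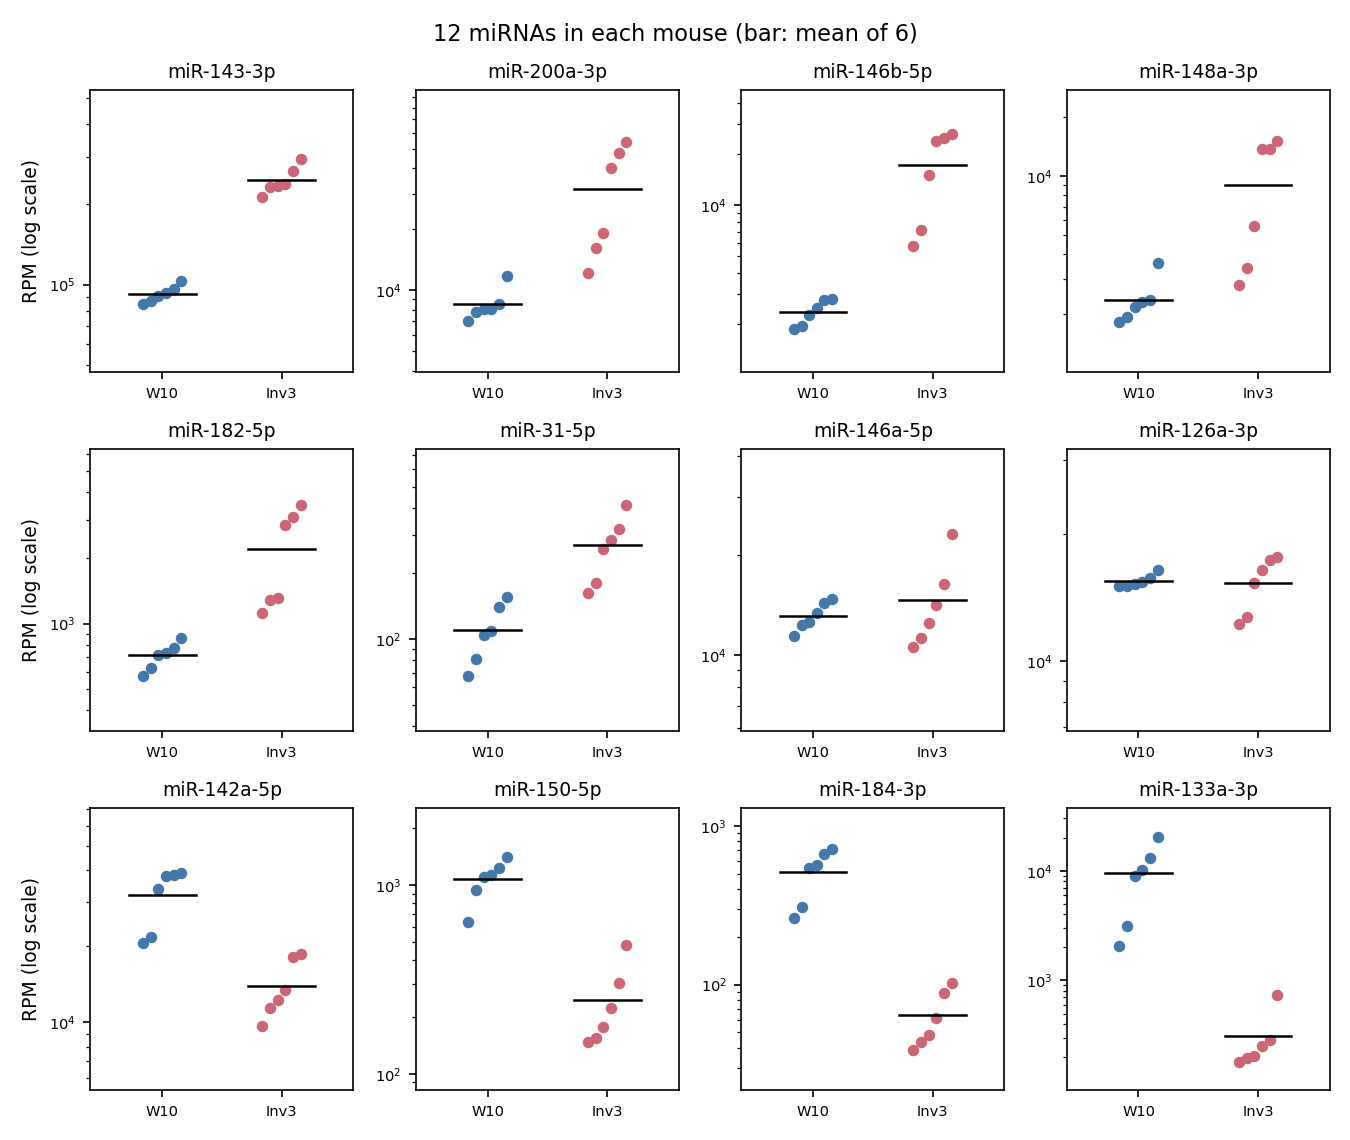
RPM (log scale, its range differs between panels) of 12 miRNAs in each of the 6 W10 mice and the 6 Inv3 mice, with a bar at the mean of 6. The groups are apart for miR-143-3p, miR-200a-3p, miR-146b-5p, miR-182-5p, miR-31-5p, miR-142a-5p, miR-150-5p, miR-184-3p and miR-133a-3p, and overlap for miR-148a-3p, miR-146a-5p and miR-126a-3p.

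The steepest decreases were in miRNAs of skeletal muscle. All 8 tested members of the list were called lower at Inv3 (background 20.8%), with a median log2 difference of -4.53, and 7 of the 8 with size factors, where miR-499-5p, at 2.88 and 0.682 RPM, lost its call. miR-133a-3p had 2066 to 20489 RPM in the W10 mice (median 9527) and 180.2 to 743 RPM in the Inv3 mice (median 228). The groups were far apart, and the W10 mice themselves ranged widely (log2 difference -4.76, 95% interval -5.74 to -3.79, adjusted p = 1.0e-06). miR-133b-3p had 70.2 to 1124 RPM at W10 and 5.12 to 39.0 RPM at Inv3 (log2 difference -4.71). miR-1a-3p had 214 to 2325 RPM and 24.7 to 160.0 RPM (log2 difference -4.36). miR-206-3p, the most restricted to skeletal muscle of the group, had 18.9 to 112 RPM and at most 4.76 RPM (5 reads), so its Inv3 mean of 1.8 RPM lies under what a count of 0 allows. The summed level of the list was 4247 to 43577 RPM at W10 and 472 to 2397 RPM at Inv3, where mouse 5 was the highest in miR-133a, miR-1a and miR-1b. At P18 and Lac7 the sums ranged from 343 to 5833 RPM and from 263 to 17649 RPM. The amount of muscle taken with each gland was not recorded in the sources, and its part in these decreases was not tested. With miR-143-3p alone left out of the total, 37 miRNAs were called higher and 73 lower. With skeletal muscle left out as well, the counts were 35 and 75. Both alternatives were chosen after seeing the data.

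miR-184, miR-338 and the pair of miR-204 and miR-211 form a list that, like the others, was chosen with earlier results of these data known. Its counts are a description only. In RPM 4 of 4 were called lower (background 20.8%). With size factors 3 of 4 were (background 11.0%), where miR-204-5p lost its call at -0.90. miR-184-3p, a miRNA of epithelial and neural tissues, had 263 to 715 RPM at W10 (median 554) and 38.9 to 103 RPM at Inv3 (median 55.1), 7.96-fold lower by the means. The stages did not overlap, and the Lac7 mean was 17.6 RPM (log2 difference -2.97, 95% interval -3.58 to -2.36, adjusted p = 1.0e-06). miR-338-3p had 443 to 689 RPM and 72.0 to 188 RPM (log2 difference -2.18, adjusted p = 3.4e-06). miR-3065-5p, complementary to it over 21 bases, fell with it, from 611 ± 85.6 to 183 ± 56.4 RPM (log2 difference -1.78). miR-211-5p fell from 25.1 ± 9.72 to 3.48 ± 0.854 RPM, a level that a count of 0 allows, and miR-204-5p from 161 ± 65.4 to 63.4 ± 24.2 RPM with overlap (log2 differences -2.48 and -1.31). These genes lie in introns of their hosts, Mir338 at chr11:120014765-120014862 in Aatk, Mir211 at chr7:64205806-64205911 in Trpm1 and Mir204 at chr19:22750605-22750672 in Trpm3, while Mir184 at chr9:89802260-89802328 has no host in the annotation.

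The lymphocyte miRNA miR-150 was lower, and the myeloid miR-223 was not called. miR-150-5p, a marker of mature lymphocytes, had 637 to 1414 RPM at W10 (median 1116) and 147 to 482 RPM at Inv3, without overlap (log2 difference -2.21, adjusted p = 6.5e-06), and miR-150-3p followed at -1.94. miR-155-5p (222 ± 32.0 to 128 ± 36.8 RPM) and miR-342-3p (2917 ± 427 to 1995 ± 721 RPM) had log2 differences of -0.82 and -0.61 and were not called. miR-142a, common to blood cells, was called lower in RPM on both arms (miR-142a-5p 31988 ± 8557 to 13908 ± 3659 RPM, log2 difference -1.19), but on neither with size factors (-0.78 and -0.60). miR-142b, called at -1.03 in RPM and not with size factors (-0.62), lost its RPM call without any of 6 of the mice (W10 mice 2, 4 and 7, Inv3 mice 3, 4 and 6), at -0.94 to -0.99. miR-223-3p, the miRNA of neutrophils and macrophages, was at 1884 ± 427 RPM at W10 and 1837 ± 246 RPM at Inv3, within 2-fold of W10 (log2 difference -0.01, 95% interval -0.37 to 0.34, and 0.41 with size factors). No red blood cell miRNA was called, and the summed level of that list was 735 to 2083 RPM at W10 and 566 to 1176 RPM at Inv3.

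In the lists of 2 imprinted clusters no miRNA was called higher and a part of the members was called lower. Of the 50 tested miRNAs of the Dlk1-Dio3 cluster on chromosome 12, expressed from the maternal chromosome, 22 were called lower and none higher (background 20.8% and 5.97%), 1 of the 50 had a positive log2 difference, and the median was -0.96 in RPM and -0.63 with size factors, where 10 were called lower against 11.0% of all miRNAs. The list also counts both arms of miR-345, whose gene lies outside the cluster on the same chromosome. miR-299a-5p, listed with the mark @, had 32.9 to 45.5 RPM at W10 and 2.77 to 14.6 RPM at Inv3 (log2 difference -2.34), and miR-434-3p 23.9 to 48.4 RPM and 1.02 to 20.6 RPM (log2 difference -2.33). Both were free of overlap. The most abundant, miR-541-5p, went from 747 ± 142 to 322 ± 141 RPM and was called in RPM only (-1.28, and -0.86 with size factors). In the list of the Sfmbt2 cluster, an imprinted cluster of chromosome 2 expressed from the paternal chromosome, 18 of 30 were called lower in RPM and 13 with size factors (background 11.0%), none higher, with medians of -1.21 and -1.03. miR-669o-3p, its most abundant member (chr2:10514300-10514395, plus strand, in an intron of Sfmbt2), had 193 to 384 RPM at W10 and 50.4 to 181 RPM at Inv3 (log2 difference -1.81), the highest Inv3 mouse being just below the lowest W10 mouse. The list was made by name. The RefSeq table gives a position for only 3 of its members, all outside the cluster. These are miR-466i-3p (called lower) on chromosome 13, and miR-466k and miR-466q (not called) on chromosome 3. The annotation places Mir467a-1, Mir669o, Mir297c and Mir466c-1 in an intron of Sfmbt2, and the other members were not placed. Members of the list are near copies of one another, so the split of reads among them is uncertain. The summed level was 1906 to 2847 RPM at W10 and 690 to 1821 RPM at Inv3 for Dlk1-Dio3, and 569 to 972 RPM and 153 to 463 RPM for Sfmbt2, without overlap in either.

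Further decreases were found in parts of other families. miR-365-3p, linked to brown fat with miR-193b, had 419 to 864 RPM at W10 and 93.2 to 240.3 RPM at Inv3 (log2 difference -2.04, adjusted p = 5.6e-06). In the Hox clusters, miR-196b-5p (2207 ± 421 to 737 ± 211 RPM) and miR-196a-5p (5476 ± 1707 to 2129 ± 409 RPM) were lower without overlap (log2 differences -1.61 and -1.33, the latter not called with size factors at -0.92), while miR-10a-5p and miR-10b-5p were within 2-fold of W10. In the miR-17-92 clusters, miR-92a-3p fell from 595 to 1352 RPM at W10 to 167 to 536 RPM at Inv3 (log2 difference -1.72, adjusted p = 9.7e-05), and miR-19b-3p, encoded in the same cluster, was at 1882 ± 540.4 and 1719 ± 396 RPM, within 2-fold. The other 3 of the 21 members called lower, miR-20b-5p (-1.40), miR-363-3p (-1.48) and miR-106a-5p (-1.08), lost their call with size factors (-0.99, -1.08 and -0.72). Among the family of miR-99, miR-100 and miR-125, which marks stroma and basal cells, miR-99a-5p (1303 ± 689.7 to 429 ± 194 RPM), miR-100-5p and miR-125b-5p were called lower in RPM and only miR-99a-5p with size factors (-1.14, against -0.83 for miR-100-5p and -0.66 for miR-125b-5p). miR-125b-5p, the most abundant of them, had 22587 ± 5921 and 11511 ± 5745 RPM (log2 difference -1.07). In the miR-181 family, miR-181c-5p (31.0 ± 21.9 to 8.83 ± 2.86 RPM) was lower without overlap, miR-181d-5p was called lower in RPM (-1.68) and not with size factors (-1.34), and miR-181b-5p (352 ± 215 to 309 ± 68.9 RPM) was within 2-fold.

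**Figure D3:**
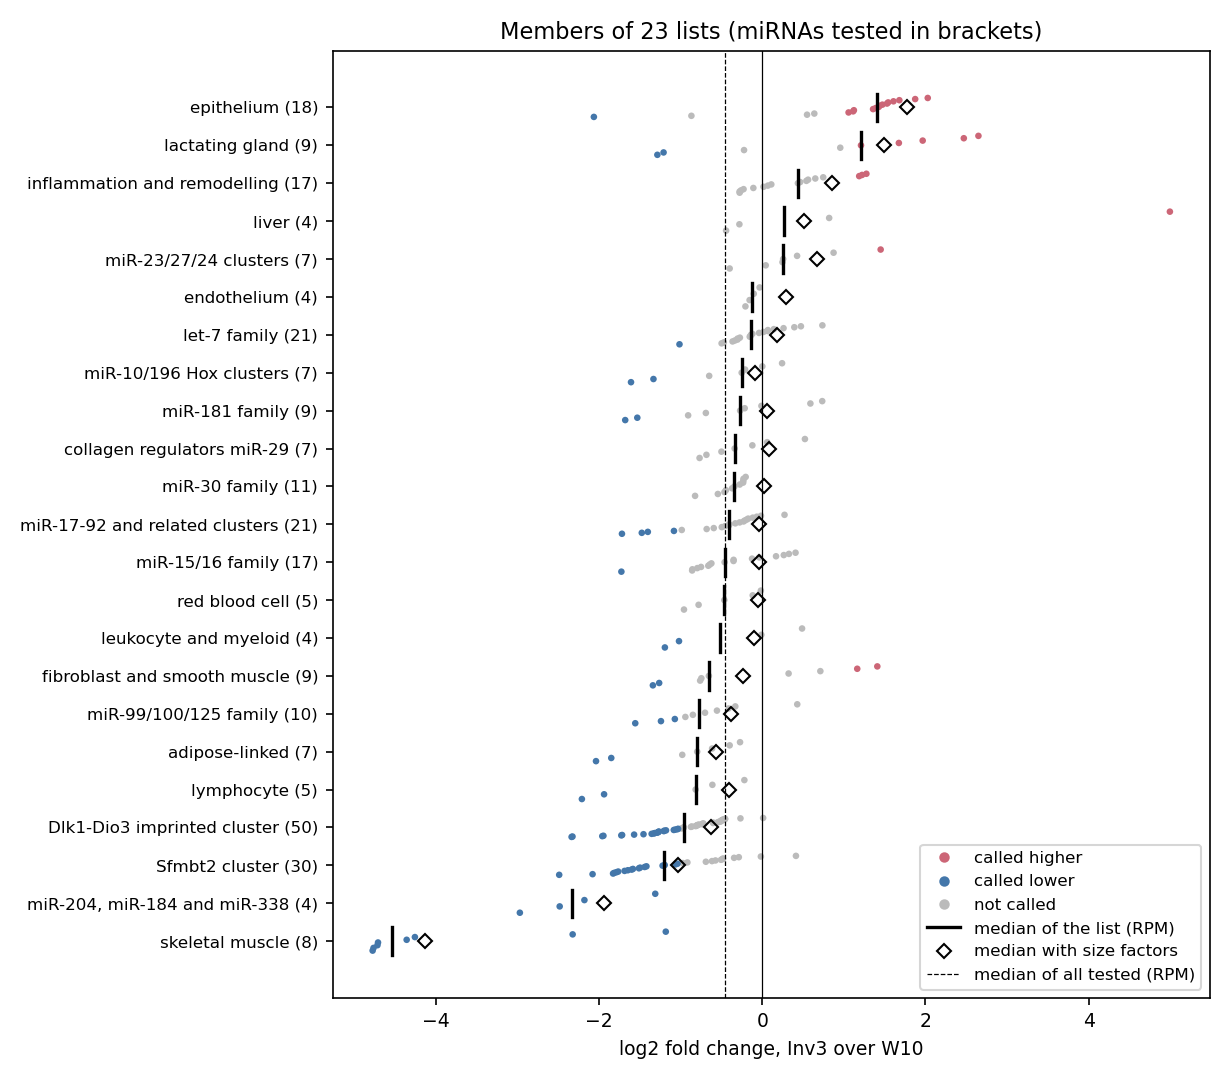
Log2 fold change at Inv3 over W10 of each tested member of 23 lists (horizontal axis, 1 point per miRNA, number tested in brackets), with the median of the list in RPM (bar) and with size factors (diamond) and the median of all 519 miRNAs in RPM (dashed, -0.45). Epithelium (1.41) and the lactating gland stand highest, and skeletal muscle (-4.53), miR-204, miR-184 and miR-338, and the imprinted clusters lowest.

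Of the 10 most abundant miRNAs over the 12 libraries, 6 lay within 2-fold of W10 by the equivalence test. miR-16-5p was at 116382 ± 7951 and 91529 ± 9889.5 RPM, let-7c-5p at 96536 ± 13905 and 86495 ± 8608 RPM, let-7a-5p at 51405 ± 8231 and 56559 ± 7591 RPM, miR-29a-3p at 48025 ± 8954 and 37543 ± 3220.2 RPM, miR-21a-5p at 32862 ± 4546 and 31169 ± 9209 RPM, and miR-103-3p at 34069 ± 4749 and 25849 ± 3429.7 RPM. Their 95% intervals ran from -0.67 at the lowest (miR-103-3p) to 0.42 at the highest (let-7a-5p) on the log2 scale. Within 2-fold does not mean equal to W10. The intervals of miR-103-3p (-0.67 to -0.13), miR-16-5p (-0.58 to -0.12) and miR-29a-3p (-0.62 to -0.06) lay below 0. For miR-103-3p the mice of the stages did not overlap. With size factors the log2 differences of these miRNAs were 0.02, 0.07 and 0.08 in the same order. Of the other 4, miR-143-3p was higher, miR-142b and miR-142a-5p were lower, and miR-199a-3p was neither (82291 ± 11469.6 to 48927 ± 9475 RPM, log2 difference -0.76, 95% interval -1.06 to -0.47).

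The endothelial list lay within 2-fold of W10, as did most of the miR-30 family and of the miR-23/27/24 clusters. The let-7 and miR-29 families did so in part. These lists count every tested member, and a member under 10 RPM could not be counted as near W10. Over all miRNAs the share on that basis is 119 of 519, and it is 41.0% among those of at least 10 RPM. All 4 tested miR-126 forms were within 2-fold (background 41.0%), and miR-126a-3p, which maintains vessels, had 15105 to 16425 RPM at W10 and 12293 to 17666 RPM at Inv3 (log2 difference -0.03, 95% interval -0.29 to 0.23, and 0.38 with size factors). In the miR-30 family 8 of 11 were within 2-fold and none was called, although miR-30d-5p did not overlap (6437 ± 1237 to 3635 ± 676 RPM, log2 difference -0.82). Of the 21 let-7 family members tested, 10 were within 2-fold and 1, let-7d-3p, was called lower in RPM (-1.01, and -0.60 with size factors). Of the 9 with the main let-7 seed and at least 10 RPM, 8 were within 2-fold. let-7i-5p was called higher with size factors only (1.15, from 2405 ± 505 and 4104 ± 1215 RPM). In the miR-29 family, which targets collagens, 3 of 7 were within 2-fold and none was called, and 5 of 7 in the miR-23/27/24 clusters were within it, with miR-27b-5p called higher (5.48 ± 4.98 to 13.8 ± 3.53 RPM, adjusted p = 0.0078). Without size factors the medians of the miR-30, let-7 and miR-29 lists were -0.34, -0.14 and -0.34, and with them 0.02, 0.18 and 0.08, so no direction is given for these families.

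Being near W10 at Inv3 did not mean having stayed there. The 10 miRNAs within 2-fold of W10 whose Lac7 mean was farthest from it (by the difference of mean log2(RPM + 1), in which the W10 mice are shared with the comparison of Inv3) held both directions. miR-21a-3p, the minor arm of an injury and tumour miRNA, had 9.95 to 24.8 RPM at W10, 0 to 3.03 RPM at Lac7 and 12.5 to 17.8 RPM at Inv3. Its main arm miR-21a-5p was at 27890 to 41060 RPM, 9101 to 13038 RPM and 23915 to 49305 RPM in the same order. miR-146a-5p, a brake on innate immune signalling, had 11427 to 14724 RPM at W10, 1829 to 4778 RPM at Lac7 and 10578 to 23198 RPM at Inv3. For each of these the Lac7 mice lay below all W10 and all Inv3 mice. miR-23a-3p (15641, 4025 and 12043 RPM as means at W10, Lac7 and Inv3), miR-17-3p (300.2, 56.3 and 223 RPM), miR-224-5p (334, 90.2 and 283 RPM), miR-351-5p (63.9, 16.3 and 58.9 RPM) were low at Lac7 in the same way, and so was miR-93-3p by its means (27, 7.46 and 22.6 RPM), with 1 Inv3 mouse inside the Lac7 range. The other 3 were high at Lac7, miR-181b-5p (352, 1415 and 309 RPM), miR-672-5p (30.1, 119 and 23.1 RPM) and the red blood cell miRNA miR-144-3p (87.8, 323 and 82.6 RPM). The equivalence of miR-672-5p was the closest to the threshold of these (adjusted p = 0.04, log2 difference -0.35, 95% interval -0.94 to 0.23).

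**Figure D4:**
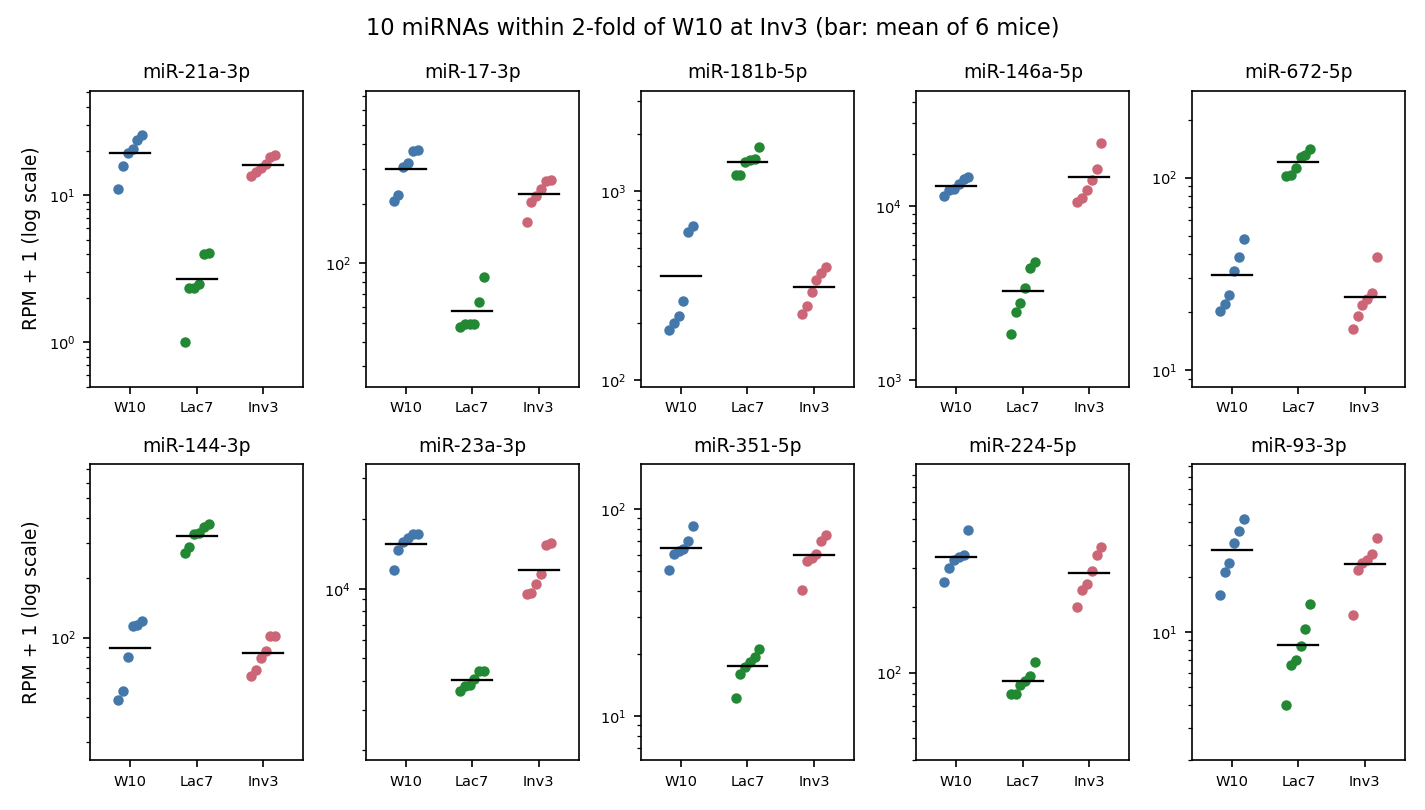
RPM + 1 (log scale, its range differs between panels) of the 10 miRNAs within 2-fold of W10 at Inv3 whose Lac7 mean was farthest from W10, in each of 6 mice at W10, Lac7 and Inv3, with a bar at the mean. The Lac7 mice lie below all others for 6 miRNAs and above all others for 3 (miR-181b-5p, miR-672-5p and miR-144-3p), and for miR-93-3p 1 Inv3 mouse overlaps them.

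Members with the same seed did not all have the same outcome. Among the 250 miRNAs of at least 10 RPM with a sequence in the table, 81 fell into 28 groups of 2 or more with an identical seed. In 15 of the 28 groups at least 1 member was called, in 4 every member was called in 1 direction, in 10 a called member stood beside one within 2-fold of W10, and in none were members called in opposite directions. The 4 were miR-141-3p with miR-200a-3p, miR-200a-5p with miR-200b-5p, miR-196a-5p with miR-196b-5p (the latter alone with size factors), and miR-204-5p with miR-211-5p (the latter alone with size factors). The miR-146 pair, with 1 seed, split. At W10 miR-146a-5p was the more abundant in every mouse, and at Inv3 miR-146b-5p was the more abundant in 4 of the 6 (mice 3, 4, 5 and 6). The miR-148 family split likewise, with miR-148a-3p called higher and miR-148b-3p (76.4 ± 15.1 to 84.5 ± 27.4 RPM) and miR-152-3p (493 ± 35.5 to 580.5 ± 157 RPM) within 2-fold.

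Ratios of a pair of miRNAs within a library hardly depend on the scaling, except where a member is low, since 1 RPM was added to each value. They were taken for 10 pairs of 1 seed, cluster or hairpin, or of related clusters. The last kind was miR-200a-3p with miR-200c-3p (the miR-200 clusters) and miR-196b-5p with miR-10b-5p (Hox clusters). The pairs were chosen after the values were seen, and are given as a description with no test. The log2 ratio of miR-146b-5p to miR-146a-5p was -2.49 ± 0.31 at W10 and 0.05 ± 1.35 at Inv3, with every Inv3 mouse (-2.0 to 1.23) above every W10 mouse (-2.88 to -2.16). miR-196b-5p against miR-10b-5p was 0.94 to 2.13 at W10 and -0.80 to 0.59 at Inv3, and miR-203-3p against miR-203-5p, arms of 1 hairpin, was 5.32 to 5.95 and 5.98 to 7.62. These 3 did not overlap. The means differed by -1.60 for miR-92a-3p against miR-19b-3p, 1.13 for miR-200a-3p against miR-200c-3p, 0.81 for miR-141-3p against miR-200c-3p and 0.70 for miR-143-3p against miR-145a-5p, all with overlap. The 3 remaining pairs differed least, miR-143-3p against miR-143-5p by 0.25, miR-21a-5p against miR-21a-3p by 0.12 and miR-182-5p against miR-183-5p by -0.07.

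Some of the names are complementary to one another. Among the tested miRNAs with a sequence, 12 pairs held a run of at least 16 complementary bases. The kit is described as stranded, but whether the counting used strand is not given in the sources used here. The reads of such a pair, unless it is the 2 arms of 1 hairpin, therefore cannot be assigned with certainty. miR-142b had 73574 RPM at W10 and 35710.4 RPM at Inv3, and miR-142a-3p, complementary over 20 bases, 4756 and 2325 RPM. miR-3074-5p had 4671 and 6228 RPM and miR-24-3p, complementary over 20 bases, 430.5 and 580 RPM. miR-126a-3p and miR-126b-5p, complementary over 19 bases, were both within 2-fold of W10. The log2 differences of the 2 members were -1.03 and -1.02 for miR-142b and miR-142a-3p, and 0.42 and 0.43 for miR-3074-5p and miR-24-3p. In other pairs they were apart, -1.42 and -0.53 for miR-3544-3p and miR-337-5p, and -0.86 and -0.04 for miR-497a-3p and miR-497b. Also apart were miR-299a-5p and miR-299a-3p (both listed with the mark @), at -2.34 and -0.27, which are the 2 arms of 1 hairpin on the same strand.

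An Inv3 library also held fewer miRNAs at equal depth, and more of its reads fell on its most abundant miRNAs. Drawn down to the 722068 reads of the smallest library, a W10 library held 537 to 548 miRNAs with at least 1 read and an Inv3 library 487 to 505, without overlap (mean difference -45.0, two-sided exact permutation p = 0.0022, the smallest that 6 mice against 6 allow, and 0.0043 adjusted over 2 measures). Without the reads of miR-143-3p, drawn down to 568308 reads, the ranges were 519 to 531 and 486 to 507, a difference of -24.7 with the same p. The 10 most abundant miRNAs of a library took 66.2 ± 1.47% of its reads at W10 and 69.7 ± 1.98% at Inv3, which overlapped (63.5 to 67.9% and 67.8 to 72.7%, exact permutation p = 0.0043). This rise of 3.53 points is smaller than the gain of 15.4 points of miR-143-3p alone. The share was not taken without miR-143-3p, so a rise among the other abundant miRNAs is not shown.

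The Inv3 mice differed from each other in how far they were from W10. The distance of a mouse from a stage was taken as the median absolute log2 difference over the 290 miRNAs of at least 10 RPM, as a description. W10 mice lay 0.183 to 0.374 from the mean of the other W10 mice, and Inv3 mice 1 to 6 lay 0.534, 0.496, 0.713, 0.759, 0.695 and 0.711 from the W10 mean. From the P18 mean they lay 0.563, 0.655, 0.479, 0.453, 0.585 and 0.492, and from the Lac7 mean 1.053, 0.959, 0.724, 0.661, 0.833 and 0.713. In RPM, mice 1 and 2 were thus nearer to W10 than to P18, mouse 1 by little (0.534 and 0.563), and the other 4 nearer to P18. In the same scale 1 mouse (mouse 4) was nearer to Lac7 than to W10, with mouse 6 at nearly the same distance from both. With size factors the distances from W10 were 0.362 to 0.638 at Inv3 and 0.176 to 0.377 at W10, which overlapped. Distances from P18 and Lac7 were not taken with size factors, so the nearest stage is given for RPM only. The SD of log2(RPM + 1) between mice was larger at Inv3 than at W10 for 173 of the 290 miRNAs, with medians of 0.415 and 0.351.

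**Figure D5:**
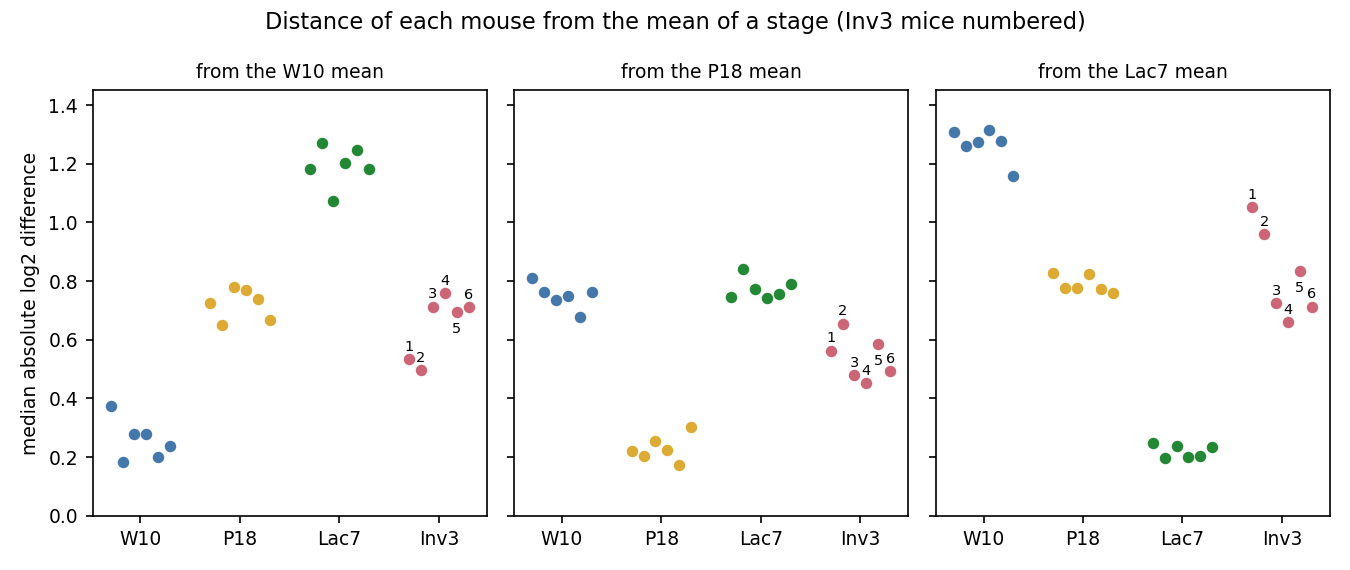
Distance of each of the 24 mice from the mean of W10, P18 and Lac7 (median absolute log2 difference over 290 miRNAs, vertical axis from 0, own mouse left out of its stage mean), by stage, with Inv3 mice numbered. Inv3 mice 1 and 2 (0.534 and 0.496) lie below the other 4 (0.695 to 0.759) in distance from W10.

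At the edge of the 1 RPM limit, miR-496a-3p (1.0 RPM at W10 and 0.587 at Inv3) and miR-129-2-3p (1.01 and 0.752) were just inside, and miR-7043-3p (0.998 and 0.823) and miR-297b-5p (0.987 and 0.602) just outside, each with 4 to 6 reads per stage in all.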

How the data were processed

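Small RNA of 24 mammary glands, 6 per stage, was sequenced with a QIAseq kit after mirVana isolation. The authors trimmed the reads, counted them with QuickMIRSeq against miRBase 22, and deposited RPM, reads per 1000000 miRNA reads, per miRNA and library. The submitters' notes name Trimmomatic 0.36, cutadapt and GRCm38. The methods name a NextSeq 500 and other text a NovaSeq, so the instrument is uncertain. Every value gave a whole read within 0.05 reads, and depth was taken from these reads. The lowest chi-square per degree of freedom between libraries of a stage was 16.0, so none was counted as a repeat of another.

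W10 and Inv3 were compared in a fit of these 12 libraries with limma 3.58.1 (R 4.3.3) on log2(RPM + 1), with a trended prior, for miRNAs of at least 1 RPM at either stage. Nearness to W10 was tested with 2 one-sided moderated tests against log2 differences of -1 and 1, for miRNAs of at least 10 RPM. Single values were compared by an exact permutation test over all splits of the mice. On simulated data of 505 miRNAs limma called 177 of 196 changed miRNAs (90.3%), none in the wrong direction, and 10 unchanged ones. Every changed miRNA there differed by a log2 of 2, and all miRNAs had the same dispersion. Differences near the limit of 2-fold were not simulated, so the share does not apply to them. The equivalence test counted 111 unchanged miRNAs and 0 changed ones as within 2-fold, with 174 unchanged ones set at 10 RPM or more. edgeR 4.0.16 and DESeq2 1.42.0 on the recovered reads were alternatives. Members and lists were chosen with earlier results of these data known.

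The text names the 12 largest increases and the 12 largest decreases among called miRNAs of at least 10 RPM without overlap, the 10 most abundant, the 10 within 2-fold of W10 and farthest from it at Lac7, members of the lists, and those at the edge of the limit. Loci are from GENCODE vM21.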

Additional observations from a re-analysis of the deposited data

Results flagged for a closer look

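In 92 groups of 6 mice examined (43 named miRNAs and the library measures at both stages), 9 held a mouse apart from the other 5 by Dixon's criterion, of which chance gives about 1 in 20. Inv3 mouse 5 was the highest in 4 miRNAs of skeletal muscle, with 28.6 RPM of miR-133a-5p (the others 2.96 to 7.2), 742.9 RPM of miR-133a-3p (180.2 to 284), 160.0 RPM of miR-1a-3p (24.7 to 48.5) and 1420.1 RPM of miR-1b-5p (225 to 332). Inv3 mouse 1 had 49305 RPM of miR-21a-5p (23915 to 30619). W10 mouse 4 had 11694 RPM of miR-200a-3p (7072 to 8508) and 547.8 expected miRNAs at equal depth (537.3 to 540.1). W10 mouse 1 had 59.3 RPM of miR-143-5p (118 to 143), and W10 mouse 3 had 43129 RPM of miR-103-3p (30107 to 34278).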

How the results depend on the processing

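The counts of 31 higher, 108 lower and 119 near W10 depended on the scale and the filter. With a pseudocount of 10 RPM they were 19 higher and 50 lower, with a filter at 100 RPM 17 and 41, and with DESeq2 on the recovered reads 47 and 45. The lower count was 57 with size factors and 57 with edgeR, and 7 miRNAs were within 1.5-fold of W10. The first 2 settings shrink low values or test fewer miRNAs, and the cause of the other shifts was not tested. Leaving out 1 mouse gave 21 to 34 higher, 91 to 116 lower, 107 to 121 near W10, differences of -47.1 to -43.4 in miRNAs at equal depth and of 2.92 to 3.90 points in the share of the 10 most abundant. Of the 43 named miRNAs, 41 stayed on their side of the call with size factors, edgeR and DESeq2, although uncalled ones could change sign (miR-16-5p -0.35 in RPM and 0.07 with size factors). The exceptions, miR-142b and miR-142a-5p, had log2 differences of -0.62 and -0.78 with size factors. The Inv3 minus W10 difference in the log2 ratio of miR-182-5p to miR-183-5p ranged from -0.18 to 0.015 when 1 mouse was left out. The sign of this difference, not of the ratio itself, reversed without W10 mouse 4 (0.015). Same-numbered W10 and Inv3 mice correlated at -0.261 to 0.336 (5 pairs, mean 0.031), against a mean of -0.008 for the other 31 pairs. So few pairs cannot exclude a link by number, and the main fit took the mice as unpaired. A fit with the replicate number as a block called 23 higher and 93 lower, with 90 near W10. A count of 0 allows up to 4.15 RPM, which limits what can be said of miRNAs near 1 RPM.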
